A study of Mus musculus with 20 samples.

Results

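The genes described here are 36 microglia genes, chosen by symbol as markers of the resting identity of microglia or of their activation, and each matched 1 Ensembl identifier among the 55401 genes of the read count table. They were followed mouse by mouse through the cerebella of 20 C57BL/6J mice, 1 cerebellum per stranded mRNA library. The mice formed 5 groups. Wild-type (WT) mice labelled 9w were either left without virus (untreated WT, 3 mice) or given AAV-shA4 (3 mice). At the 25w label there were 4 untreated WT mice, 5 AAV-shSCR-treated SCA7 mice and 5 AAV-shA4-treated SCA7 mice. The SCA7 mice carried the 140Q/5Q knock-in genotype, that is, an expanded CAG repeat in 1 copy of Atxn7. AAV PHP.eB is a capsid that enters the brain from the blood, and the vector carried an eGFP cassette beside the short hairpin RNA. The shA4 hairpin was directed at CAG repeats and shSCR was a scrambled hairpin. Untreated mice received saline according to the study's methods, and no untreated SCA7 mouse and no AAV-shSCR-treated WT mouse was analysed here. The methods state that sexes were not mixed within a treatment group. A figure legend of the study gives the AAV-shSCR-treated SCA7 mice and the WT mice compared with them as males. The labels give 9w and 25w without a starting day, whereas the study's text counts weeks from injection for its RNA-seq mice.

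Microglia are the resident macrophages of the brain. In the resting state they sense their surroundings through purinergic, chemokine and lectin-like receptors, depend on signalling through Csf1r, and are the main source of the complement chains C1qa, C1qb and C1qc in the brain. When neurons degenerate they can pass through a Trem2- and Tyrobp-dependent programme in which homeostatic receptors decline and Cst7, Clec7a, Itgax, Axl, Lpl and Spp1 increase. Purkinje cells (PCs), the output neurons of the cerebellar cortex, are among the cells affected in SCA7.

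Between 31465586 and 54570503 reads fell on genes in each library, and the 36 genes together took 0.056% to 0.0771% of the protein-coding reads. Levels are given as CPM, the reads on a gene scaled to a common protein-coding library size, with TMM factors over the 20 libraries. All 36 genes had at least 1 read in every library. In whole cerebellum a lower number of microglia and less RNA per microglial cell cannot be told apart. Atxn7 reads of the normal and the expanded copy were counted together, so this gene does not check the labels, and its level was 48.5 ± 1.97 CPM (SD, n = 4) in untreated WT, 49.4 ± 2.90 (n = 5) in AAV-shSCR-treated SCA7 and 48.1 ± 2.70 (n = 5) in AAV-shA4-treated SCA7 mice labelled 25w. In 3 libraries 27 or more of the 36 microglia genes were the highest of their group. These were AAV-shA4-treated WT mouse 3, AAV-shSCR-treated SCA7 mouse 1 and AAV-shA4-treated SCA7 mouse 2. Over all the genes, counts of positive fold changes, medians and sums are given with and without them. These mice were chosen on the same genes, so the direction in which leaving them out moves a count was largely fixed in advance.

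The summed level of the 36 genes overlapped between all groups. Its largest part was Ctsd, a protease that most cells also make, with a mean of 207 CPM over all mice. Axl had a mean of 54.4 CPM and Spp1 of 34.2 CPM, and the cells these reads came from were not tested. The sum is therefore not a measure of microglia alone. The sum was 583, 571 and 626 CPM in the 3 untreated WT mice labelled 9w. In the 3 AAV-shA4-treated WT mice it was 583, 576 and 707 CPM. At the 25w label it was 667, 622, 619.5 and 631 CPM in untreated WT mice, 755, 648, 631, 621 and 602 CPM in AAV-shSCR-treated SCA7 mice, and 668, 738, 601, 638 and 636 CPM in AAV-shA4-treated SCA7 mice. Group means were thus 635 ± 22.0 (SD, n = 4), 651 ± 60.4 (n = 5) and 656 ± 51.6 CPM (n = 5). Without the highest mouse of each SCA7 group, the means were 626 ± 19.0 and 636 ± 27.4 CPM (n = 4 each). AAV-shSCR-treated SCA7 mouse 1 was the highest of its group for 27 of the 36 genes and AAV-shA4-treated SCA7 mouse 2 for 30. AAV-shA4-treated WT mouse 3 was the highest of its 3 for 32 genes. Among untreated WT mice, mouse 3 of the 9w label was the highest of its group for 21 genes and mouse 1 of the 25w label for 18. At the 25w label no mouse had a summed level beyond the 95% limit of Dixon's test for outliers.

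**Figure D1:**
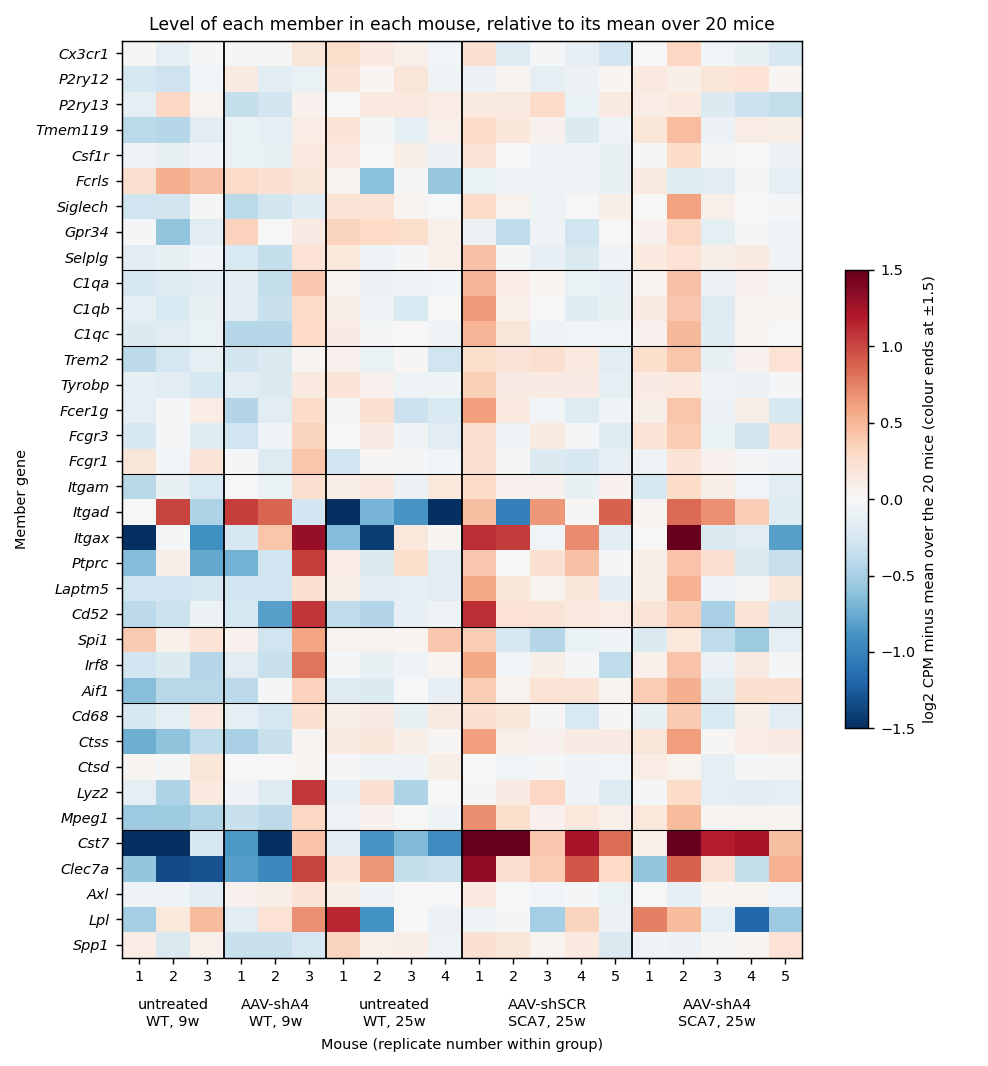
Colour shows log2 CPM of each of the 36 microglia genes (rows, separated by role) in each of the 20 mice (columns, by group and replicate number), minus the gene's mean over all mice. Red columns mark the 3 mice with 27 or more of the 36 genes at the highest value of their group. They are AAV-shA4-treated WT mouse 3, AAV-shSCR-treated SCA7 mouse 1 and AAV-shA4-treated SCA7 mouse 2. The Cst7 row is blue in most WT mice and red in the SCA7 mice.

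**Figure D2:**
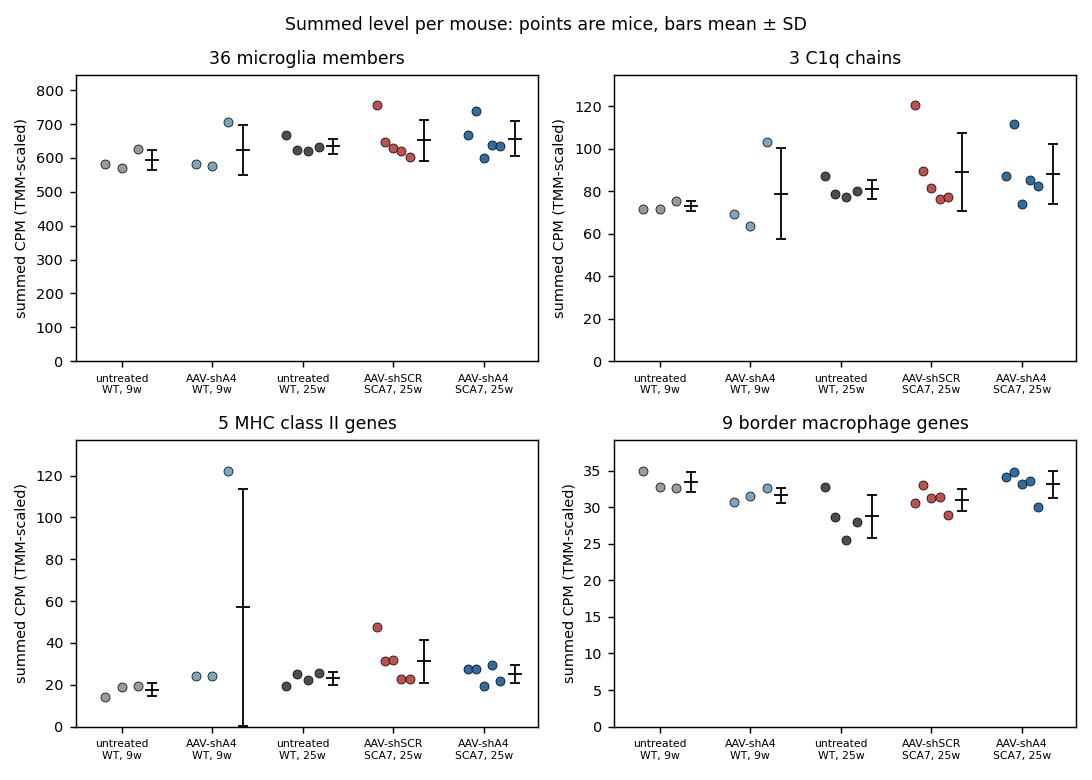
Each point is the summed CPM of a gene list in 1 mouse, with the group mean ± SD beside it, for the 36 microglia genes, the 3 C1q chains, 5 MHC class II genes and 9 border macrophage genes. The summed level of the 36 genes, with Ctsd the largest part, ran from 571 to 755 CPM and overlapped between all groups. MHC class II reached 122 CPM in 1 AAV-shA4-treated WT mouse.

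Levels differed far more between the genes than between the groups. Per kilobase of median transcript length, Ctsd, a lysosomal protease that most cells also make, had the highest mean over the 20 mice at 108 CPM per kilobase. Axl, a receptor tyrosine kinase for Gas6, followed at 78.9 and Laptm5, a lysosomal membrane protein of leukocytes, at 50.4. Csf1r, the receptor for the survival factors Csf1 and Il34, reached 33.7, C1qa 28.4, Tyrobp, the signalling adaptor of Trem2, 12.99 and Spi1, the gene of the myeloid factor PU.1, 2.75 CPM per kilobase. The lowest were Cst7, an inhibitor of cysteine proteases, at 0.209 and Itgad, an integrin alpha chain, at 0.0518 CPM per kilobase. With the longest transcript in place of the median, an alternative added after the data were seen, Axl stood at 12.8, Laptm5 at 7.35, Csf1r at 10.1 and Spi1 at 0.781 CPM per kilobase, so the order among these genes rests on the length used, whereas Ctsd stayed first at 97.3 and Cst7 and Itgad stayed among the lowest 3.

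The first comparison set AAV-shA4-treated against untreated WT mice, none with the expanded allele. The virus, its eGFP cassette and the hairpin change together here and cannot be told apart. None of the 34 microglia genes tested passed the test, which required a Benjamini-Hochberg adjusted p under 0.05 from edgeR over all genes and a fold change above 1.3. The background was 8 of 14733 genes, or 0.0543%. With an unadjusted limit of 0.05, 7 of the 34 passed (11.1% of all genes). Without AAV-shA4-treated WT mouse 3, 4 of 34 passed this unadjusted limit, against 2601 of 14908 genes. By the adjusted test DESeq2 also called 0. Cst7 had too few reads to be tested and Clec7a was tested separately, as described below.

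Within this null result most fold changes were positive. They were positive for 26 of 34 genes with a median log2 fold change of 0.16, against 49.9% of all genes and a median of 0.00. Without AAV-shA4-treated WT mouse 3 they were positive for 14 of 34, with a median of −0.03. Without untreated WT mouse 3, the highest of its group in summed level, 29 of 34 were positive with a median of 0.17. Homeostatic surface receptors were positive for 6 of 9 with a median of 0.06, C1q chains for 3 of 3 with 0.11, and integrins and other leukocyte surface proteins for 6 of 6 with 0.41. Without AAV-shA4-treated WT mouse 3 these became 4 of 9 with −0.03, 0 of 3 with −0.09 and 3 of 6 with 0.09. The smallest unadjusted p-values belonged to Axl, with a log2 fold change of 0.23 ± 0.06 (SE) and an edgeR adjusted p of 0.217, and to Spp1, the secreted phosphoprotein osteopontin, with −0.30 ± 0.09 and 0.264. Axl measured 51.8, 51.8 and 48.1 CPM in untreated WT mice and 57.0, 58.1 and 62.7 CPM with AAV-shA4. The Axl values did not overlap between the groups. This was the case for 7 of the 34 microglia genes, 6 of them higher and 1 (Spp1) lower. Among all genes it was the case for 16%, 7.19% higher and 8.81% lower. The counts of genes without overlap were not repeated without AAV-shA4-treated WT mouse 3.

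MHC class II and lymphocyte genes had their highest summed levels in AAV-shA4-treated WT mouse 3. The 5 MHC class II genes all had positive fold changes and none passed the test. With an unadjusted edgeR limit of 0.05, 4 of the 5 passed, against 11.1% of all genes. Values of 3 did not overlap, all higher, against 7.19% of all genes. The summed level of the 5 was 14 to 19.6 CPM in untreated WT mice. It was higher in all 3 AAV-shA4-treated WT mice, at 24.2, 24.3 and 122 CPM, with mouse 3 the highest. The summed level of 13 T and B lymphocyte genes was 0.937 to 1.25 CPM in untreated mice and higher in all 3 treated mice, at 1.74, 1.5 and 6.09 CPM. Among these, named after their values were seen, the T cell gene Cd3e had 18 reads in mouse 3 against 1 and 1 in the other treated mice, and Cd8a had 18 against 2 and 0. The 9 border macrophage genes (summed level 30.7 to 32.7 CPM) had no such mouse. Of 9 monocyte and neutrophil genes 5 were tested, and 1 had a positive fold change, with a median log2 of −0.85. The summed level of 7 choroid plexus genes, a tissue that adheres to the cerebellum, was 945.6, 1793 and 634 CPM in the treated mice, with mouse 3 the lowest. The part of these cells in the microglia values was not tested.

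At the 25w label, AAV-shSCR-treated SCA7 mice were compared with untreated WT mice. Genotype and virus change together here and cannot be told apart. Cst7 and Itgad were higher and Gpr34, a lysophospholipid receptor of homeostatic microglia, was lower in SCA7 mice. These 3 were the only genes to pass the test among 35 tested, against 597 of 14862 genes in the background (4.02%, with 1.35% higher and 2.66% lower). With an unadjusted limit of 0.05, 7 of the 35 passed, against 28.7% of all genes. Values did not overlap for 4 microglia genes, 3 of them higher (Cst7, Cd52 and Aif1) and 1 lower (Gpr34), against 16.7% of all genes, 7.1% higher and 9.62% lower. The 2 that were higher stand on few reads. Both passed the low-count filter through the reads of SCA7 mice alone, so being tested depended on being high there. Their calls and their share against the background are therefore not independent of that filter.

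Cst7 (chromosome 2, 150570415 to 150578944, mm10) is a marker of activated microglia. It measured 0.131, 0.0797, 0.0931 and 0.0774 CPM in untreated WT mice, which correspond to 7, 3, 4 and 3 reads. AAV-shSCR-treated SCA7 mice had 0.442, 0.537, 0.196, 0.348 and 0.264 CPM, from 15, 19, 8, 12 and 10 reads. Every SCA7 mouse lay above every WT mouse. The log2 fold change was 1.83 ± 0.41 (SE) with an edgeR adjusted p of 0.00585, and it passed the test in each of the 14 fits that left out 1 library. Pooled over mice, 64 against 17 reads gave a ratio of 3.56, with an exact 95% interval of 2.06 to 6.49 that covers counting error only.

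At the 9w label Cst7 was at 0.0216, 0.0436 and 0.125 CPM in untreated WT mice and at 0.0816, 0.0263 and 0.198 CPM in AAV-shA4-treated WT mice. Those are 1 to 7 reads, below all 5 AAV-shSCR-treated SCA7 mice except for the highest treated WT mouse, which exceeded the lowest SCA7 mouse by less than 0.01 CPM.

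Itgad (chromosome 7, 128154376 to 128223816) lies beside Itgam and Itgax, whose products pair with the same beta chain. Untreated WT mice had 0.0563, 0.106, 0.0931 and 0.0516 CPM, from 3, 4, 4 and 2 reads, and AAV-shSCR-treated SCA7 mice had 0.236, 0.0848, 0.270, 0.174 and 0.317 CPM, from 8, 3, 11, 6 and 12 reads. SCA7 mouse 2 overlapped the WT mice and the other 4 lay above them. The log2 fold change was 1.49 ± 0.44 with an edgeR adjusted p of 0.0302. It missed the threshold by DESeq2 (adjusted p = 0.0580), and without AAV-shSCR-treated SCA7 mouse 1 (adjusted p = 0.0519), WT mouse 1 (0.0927) or WT mouse 4 (0.0797) by edgeR. Itgad did not pass the low-count filter in 4 further fits that left out 1 library. Its span holds Cox6a2 on the opposite strand, with 1039 reads over all libraries against 156 for Itgad, and whether the counting used strand is not given in the sources used here.

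The untreated WT mice labelled 25w were also the lowest group for Itgad in the series. At the 9w label it measured 0.173, 0.349 and 0.125 CPM in untreated WT mice and 0.353, 0.316 and 0.142 CPM in AAV-shA4-treated WT mice. The SCA7 mice lay within the range of these younger WT mice apart from AAV-shSCR-treated mouse 2.

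Gpr34 (chromosome X, 13632089 to 13640858) measured 5.01, 4.89, 4.75 and 4.18 CPM in untreated WT mice and 3.74, 3.05, 3.83, 3.22 and 3.96 CPM in AAV-shSCR-treated SCA7 mice. All 5 SCA7 mice lay below all 4 WT mice. Its log2 fold change was −0.40 ± 0.11 with an edgeR adjusted p of 0.0189, close to the fold limit. It was −0.35 without AAV-shSCR-treated SCA7 mouse 2, inside the limit, and its adjusted p was 0.0512 without mouse 4, 0.0564 without WT mouse 1 and 0.0506 without WT mouse 2. Gpr34 lies within the span of Cask, on the opposite strand.

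The other microglia genes did not pass the test in this comparison. Fold changes were positive for 23 of 35 genes, with a median log2 of 0.10, against 50.5% of all genes. Without AAV-shSCR-treated SCA7 mouse 1, 16 of 35 were positive and the median was −0.00. Without untreated WT mouse 1, the highest of its group in summed level, 27 of 35 were positive and the median was 0.12. Homeostatic receptors were positive for 3 of 9 genes with a median of −0.03, and for 2 of 9 with −0.09 without AAV-shSCR-treated SCA7 mouse 1. P2ry12, the ADP receptor that steers microglial processes, had −0.14 ± 0.07 (adjusted p = 0.196) and Tmem119, a microglia membrane protein, 0.03 ± 0.11 (adjusted p = 0.906).

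C1q chains, Trem2 and Fc receptors with their adaptors, and leukocyte surface proteins were positive for 3 of 3, 5 of 5 and 6 of 6 genes, with medians of 0.14, 0.10 and 0.46. Without AAV-shSCR-treated SCA7 mouse 1 they were positive for 2 of 3, 3 of 5 and 5 of 6, with medians of 0.00, 0.03 and 0.29. Cd52, a surface glycoprotein of leukocytes, came nearest to passing with 0.65 ± 0.22 (edgeR adjusted p = 0.0587), and it passed by DESeq2 (adjusted p = 0.0407). The SCA7 and WT values of Cd52 did not overlap, but AAV-shSCR-treated SCA7 mouse 1 stood apart at 3.06 CPM against 1.56 to 1.67 CPM in the other 4. Without it Cd52 had 0.41 (edgeR adjusted p = 0.144). The lysosomal genes ran from −0.02 to 0.30, with Mpeg1, a pore-forming protein of macrophages, at 0.30 ± 0.12 (adjusted p = 0.101). Axl, Lpl and Spp1 of the activation group ran from −0.29 to 0.00.

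The members with the highest level of their role group showed where the groups overlapped. C1qa, the A chain of C1q, measured 30.1, 27.4, 28.2 and 28.4 CPM in untreated WT mice and 41.6, 31.4, 29.7, 27.3 and 26.8 CPM in AAV-shSCR-treated SCA7 mice. Csf1r measured 52.2, 46.9, 50.1 and 44.3 CPM in untreated WT mice and 54.0, 47.2, 45.7, 45.6 and 43.9 CPM in these SCA7 mice. For both, the range of the SCA7 mice enclosed that of the WT mice.

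Tyrobp measured 8.46, 7.75, 7.03 and 7.12 CPM in untreated WT mice and 9.54, 8.11, 8.07, 8.05 and 6.74 CPM in AAV-shSCR-treated SCA7 mice. Laptm5 was at 20.1, 16.7, 17.0 and 16.9 CPM in WT and at 28.0, 21.4, 19.5, 21.4 and 16.8 CPM in SCA7 mice. Mouse 1 was the highest in each case, and the groups overlapped with and without it. Spi1 was at 1.61, 1.62, 1.58 and 2.06 CPM in WT and at 2.00, 1.3, 1.15, 1.45 and 1.51 CPM in SCA7 mice. Ctsd was at 205, 195, 197 and 219.5 CPM in WT and at 208, 201, 202, 199 and 200.5 CPM in SCA7 mice. For Ctsd the 5 SCA7 mice lay within the WT range, and for Axl all but 2 did, with 57.9, 51.9, 54.4 and 53.9 CPM in WT and 60.2, 54.7, 52.6, 53.4 and 50.7 CPM in SCA7 mice.

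The same WT mice were the controls for the AAV-shA4-treated SCA7 mice, so the comparisons are not independent. Cst7 and Itgad were again higher and were the only 2 of 35 microglia genes to pass the test, against 513 of 14862 genes (3.45%, with 1.18% higher and 2.27% lower). With an unadjusted limit of 0.05, 4 of the 35 passed, against 26.6% of all genes. Cst7 and Itgad were also the only 2 whose values did not overlap, both higher, against 13.5% of all genes, 5.32% higher and 8.13% lower. Cst7 measured 0.155, 0.414, 0.333, 0.349 and 0.202 CPM, from 7, 16, 12, 11 and 8 reads. Each AAV-shA4-treated SCA7 mouse lay above each untreated WT mouse. The log2 fold change was 1.52 ± 0.42 with an edgeR adjusted p of 0.0238, and the pooled ratio of 54 to 17 reads was 2.87 with a counting interval of 1.64 to 5.29. The adjusted p was 0.0584 without AAV-shA4-treated SCA7 mouse 2, and 0.0609, 0.0598 and 0.0644 without WT mouse 2, 3 or 4.

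Itgad measured 0.178, 0.311, 0.278, 0.222 and 0.151 CPM in AAV-shA4-treated SCA7 mice, from 8, 12, 10, 7 and 6 reads. All 5 lay above the 4 WT mice, with a log2 fold change of 1.54 ± 0.44 and an edgeR adjusted p of 0.0271. Without WT mouse 1 or WT mouse 4 the adjusted p was 0.0784 or 0.0761. In the fit of these 2 groups alone 33 microglia genes were tested, and Cst7 and Itgad had too few reads to be among them. DESeq2 gave both no adjusted p. In the fit of all 25w libraries both genes passed the low-count filter through the reads of SCA7 mice alone.

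Gpr34 measured 4.15, 4.92, 3.58, 3.90 and 3.81 CPM in AAV-shA4-treated SCA7 mice. These values overlapped those of untreated WT mice, with a log2 fold change of −0.21 ± 0.11 (edgeR adjusted p = 0.237). Fold changes were positive for 25 of 35 microglia genes with a median log2 of 0.09, against 52.2% of all genes. They were positive for 20 of 34 with a median of 0.03 without AAV-shA4-treated SCA7 mouse 2. Without untreated WT mouse 1 they were positive for 28 of 35 with a median of 0.13. Trem2, the lipid-sensing receptor of activated microglia, had 0.25 ± 0.11 (adjusted p = 0.158) and Aif1, which codes for the microglia stain Iba1, had 0.39 ± 0.14 (adjusted p = 0.0778). Both missed the threshold.

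**Figure D3:**
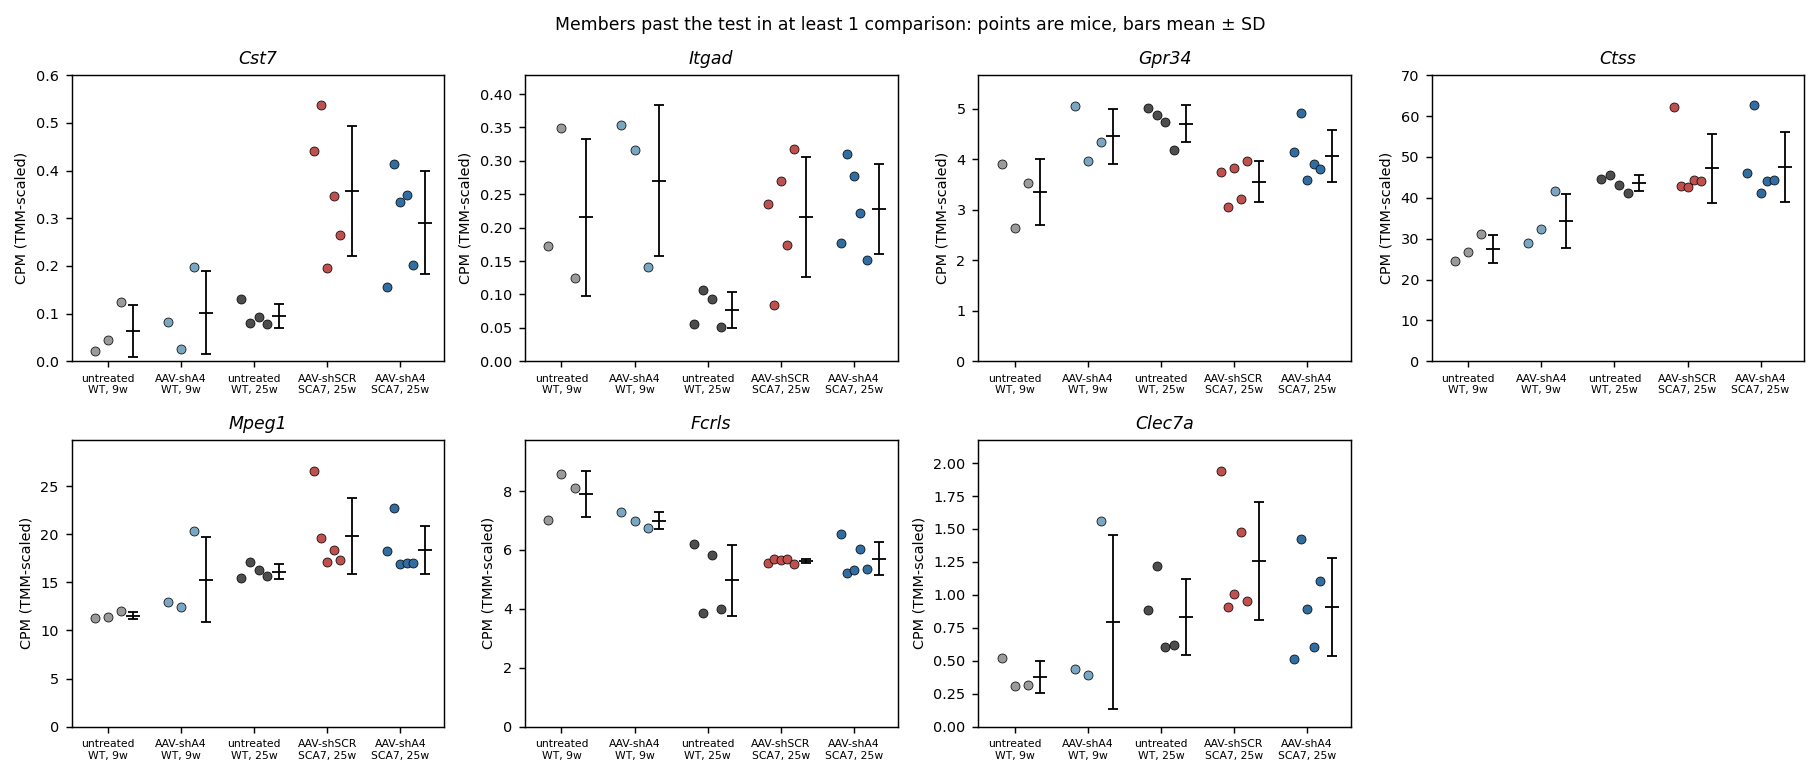
CPM in each of the 20 mice for the 7 genes that passed the test in at least 1 comparison, Clec7a in the fit of all gene types, with the group mean ± SD beside the points and every axis starting at 0. Cst7 was below 0.2 CPM in all WT mice and reached 0.537 CPM in an SCA7 mouse, while Ctss and Mpeg1 were lowest in untreated WT mice labelled 9w.

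The direct comparison of AAV-shA4 with AAV-shSCR in SCA7 mice tested the shA4 hairpin with genotype and virus held the same. No microglia gene of 35 passed the edgeR test, and neither did any of the 14862 genes (0%). With an unadjusted limit of 0.05, 2 microglia genes passed against 1222 genes in all (8.22%), and DESeq2 called 0 microglia genes and 5 of all genes. The 2 were P2ry12, at 0.18 ± 0.06 with an adjusted p of 0.532, and its neighbour P2ry13, a second ADP receptor, at −0.24 ± 0.11 with 0.594. The signs of these adjoining receptors were opposite. Values of the treated groups overlapped for all 35 genes, and 1.49% of all genes did not overlap.

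Between the treated SCA7 groups the log2 fold change of Cst7 was −0.30 ± 0.33 (adjusted p = 0.835), that of Itgad 0.05 ± 0.35 (0.985) and that of Gpr34 0.19 ± 0.10 (0.640). Gpr34 was thus below untreated WT past the threshold in AAV-shSCR-treated mice alone, yet the difference between the treated groups did not pass the test. For Cst7 the pooled ratio was 0.807 with a counting interval of 0.551 to 1.18, and for Itgad it was 1.03 with 0.653 to 1.62.

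Across the microglia genes, 17 of 35 fold changes were positive and the median was −0.00, against 50.1% of all genes. The 2 mice left out next were each the highest of their group for most of these genes. The direction of each shift was thus largely fixed in advance. Without AAV-shA4-treated SCA7 mouse 2, 9 of 34 were positive with a median of −0.08, and without AAV-shSCR-treated SCA7 mouse 1, 26 of 35 were positive with a median of 0.09. Homeostatic receptors were positive for 8 of 9 genes with all mice, at a median of 0.07, for 5 of 9 with 0.01 without AAV-shA4-treated SCA7 mouse 2 and for 8 of 9 with 0.15 without AAV-shSCR-treated SCA7 mouse 1. C1q chains were positive for 0 of 3 with all mice, at −0.02 to −0.00, and their median was −0.10 without the first of these mice and 0.12, with 3 of 3 positive, without the second. C1qa measured 30.2, 39.5, 27.5, 30.5 and 28.7 CPM and Csf1r 47.7, 57.3, 46.2, 47.0 and 44.5 CPM in AAV-shA4-treated SCA7 mice, and both ranges overlapped those of AAV-shSCR-treated mice.

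**Figure D4:**
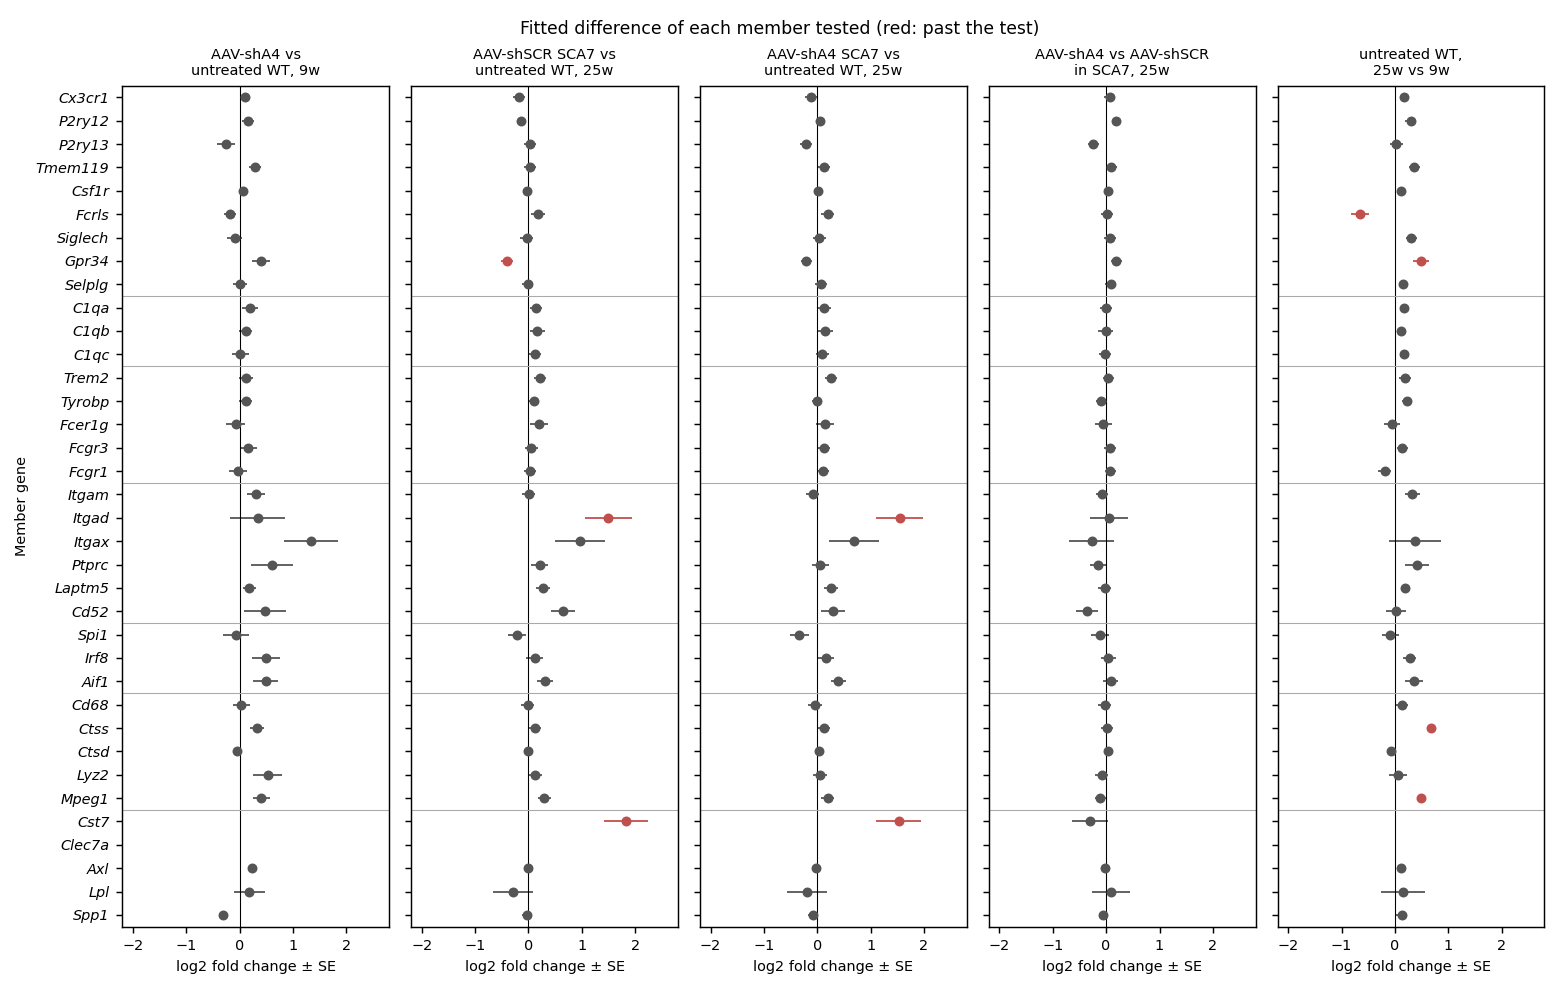
Fitted log2 fold change ± SE of each protein-coding microglia gene tested (rows, by role) in the 5 comparisons (panels), with genes past the test in red. The panel of AAV-shA4 against AAV-shSCR has no red point, and the SCA7 panels have Cst7 and Itgad in red on the right.

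Untreated WT mice labelled 25w and 9w were compared last. Age and cohort change together and cannot be told apart. Ctss, a lysosomal cysteine protease, Mpeg1 and Gpr34 were higher in the 25w mice and Fcrls, an Fc receptor-like protein of microglia, was lower. These were 4 of 33 microglia genes tested as protein-coding, against 764 of 14875 genes in the background (5.14%, with 3.23% higher and 1.91% lower). With an unadjusted limit of 0.05, 14 of the 33 passed, against 36.9% of all genes.

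Ctss (chromosome 3, 95526786 to 95556403) measured 24.5, 26.7 and 31.2 CPM in the 9w mice and 44.6, 45.6, 43.2 and 41.2 CPM in the 25w mice. The log2 fold change was 0.67 ± 0.08 with an edgeR adjusted p of 0.000524. Mpeg1 (chromosome 19, 12460779 to 12465283) measured 11.3, 11.4 and 11.99 CPM in the 9w mice and 15.5, 17.1, 16.3 and 15.6 CPM in the 25w mice, with 0.48 ± 0.06 and an adjusted p of 0.00103. Neither gene overlapped between the groups, and both passed in all 7 fits that left out 1 library.

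Both genes were the highest of their group in AAV-shA4-treated WT mouse 3, AAV-shSCR-treated SCA7 mouse 1 and AAV-shA4-treated SCA7 mouse 2. Ctss was at 62.2, 43.0, 42.5, 44.4 and 44.1 CPM in AAV-shSCR-treated and at 46.0, 62.6, 41.1, 44.0 and 44.4 CPM in AAV-shA4-treated SCA7 mice. Mpeg1 was at 26.7, 19.6, 17.1, 18.3 and 17.3 CPM and at 18.3, 22.7, 16.9, 17.0 and 17.0 CPM in these groups. In AAV-shA4-treated WT mice labelled 9w, Ctss was at 29.0, 32.3 and 41.7 CPM and Mpeg1 at 12.97, 12.5 and 20.4 CPM. Mouse 3 alone reached the range of the untreated 25w mice for Ctss and exceeded it for Mpeg1.

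Fcrls (chromosome 3, 87250758 to 87263738) measured 7.03, 8.58 and 8.10 CPM in untreated WT mice labelled 9w and 6.19, 3.85, 5.82 and 4.00 CPM in those labelled 25w. WT mice 2 and 4 of the 25w label were the lowest of all 20 mice. The log2 fold change was −0.66 ± 0.17 with an edgeR adjusted p of 0.0208, which became 0.0712 or 0.0593 without mouse 2 or 3 of the 9w label. In the other groups Fcrls was at 7.29, 6.97 and 6.74 CPM (AAV-shA4-treated WT), at 5.57, 5.71, 5.66, 5.68 and 5.52 CPM (AAV-shSCR-treated SCA7) and at 6.53, 5.23, 5.34, 6.02 and 5.37 CPM (AAV-shA4-treated SCA7).

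Gpr34 measured 3.90, 2.64 and 3.54 CPM in untreated WT mice labelled 9w, below the 4.18 to 5.01 CPM of the 25w mice. AAV-shA4-treated WT mice labelled 9w had 5.06, 3.97 and 4.33 CPM. Its log2 fold change between the labels was 0.49 ± 0.14 (edgeR adjusted p = 0.0344), and it passed the test in 2 of 7 fits that left out 1 library. The adjusted p was 0.0974 and 0.0651 without mouse 2 or 3 of the 9w label, and 0.0537, 0.0710 and 0.0752 without mouse 1, 2 or 3 of the 25w label. The same 25w mice were the controls against which Gpr34 was lower in AAV-shSCR-treated SCA7 mice.

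Clec7a, the beta-glucan receptor Dectin-1 and a marker of activated microglia, is annotated as a polymorphic pseudogene and was therefore tested in a fit of all gene types. It measured 0.518, 0.305 and 0.312 CPM in untreated WT mice labelled 9w and 0.882, 1.22, 0.605 and 0.619 CPM in those labelled 25w. All 25w mice lay above all 9w mice, with a log2 fold change of 1.13 ± 0.33 and an edgeR adjusted p of 0.0355, so it passed, as did 977 of 18015 genes of all types (5.42%). This call was not repeated with a library left out. In AAV-shA4-treated WT mice it was at 0.435, 0.395 and 1.56 CPM. SCA7 mice had 1.94, 0.904, 1.01, 1.48 and 0.951 CPM with AAV-shSCR and 0.511, 1.42, 0.889, 0.602 and 1.11 CPM with AAV-shA4. Against untreated WT of the same label the log2 fold changes were 0.59 ± 0.31 (adjusted p = 0.241) and 0.13 ± 0.32 (adjusted p = 0.856), and neither passed.

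Fold changes between the labels were positive for 28 of 33 microglia genes with a median log2 of 0.16, against 51.2% of all genes. C1q chains, leukocyte surface proteins and the activation genes tested were positive for 3 of 3, 5 of 5 and 3 of 3. Groups did not overlap for 14 genes on the higher side and 1 on the lower side, against 16.6% and 17.1% of all genes (33.7% together). On the adjusted p alone, 7 genes passed (23% of all genes), adding P2ry12 at 0.29 ± 0.09, Tmem119 at 0.36 ± 0.10 and C1qa at 0.17 ± 0.05, whose fold was under the limit.

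In the WT mice labelled 9w, C1qa was at 24.5, 25.4 and 26.2 CPM untreated and at 25.9, 22.8 and 38.5 CPM with AAV-shA4. Csf1r was at 45.1, 43.7 and 45.4 CPM untreated and at 44.0, 43.6 and 52.1 CPM with AAV-shA4. Tyrobp was at 6.82, 6.58 and 6.20 CPM untreated and at 6.61, 6.42 and 8.19 CPM with AAV-shA4. Mouse 3 with AAV-shA4 was the highest for all 3 genes and the other 2 treated mice lay within or near the untreated range.

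Laptm5 showed the same mouse, at 15.3, 15.4 and 15.8 CPM untreated and at 15.5, 15.3 and 22.0 CPM with AAV-shA4, and so did Spi1, at 2.05, 1.63 and 1.79 CPM untreated and at 1.63, 1.26 and 2.35 CPM with AAV-shA4. Ctsd overlapped, at 211, 204 and 235 CPM untreated and at 207, 206 and 211 CPM with AAV-shA4. In AAV-shA4-treated SCA7 mice Tyrobp was at 8.06, 8.21, 7.17, 6.97 and 7.26 CPM, Laptm5 at 19.955, 26.9, 17.9, 19.1 and 21.1 CPM and Spi1 at 1.35, 1.74, 1.19, 1.08 and 1.41 CPM. Mouse 2 was the highest for all 3. Ctsd was at 224, 214, 187, 204 and 209 CPM and Axl at 54.0, 49.998, 55.6, 56.3 and 52.7 CPM there, and mouse 2 was the lowest for Axl.

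The genes not yet given mouse by mouse had these ranges over the 20 mice. Cx3cr1, the receptor for neuronal fractalkine, ran from 13.7 to 20.8 CPM, P2ry12 from 8.93 to 12.9 CPM, P2ry13 from 3.28 to 5.21 CPM and Tmem119 from 7.65 to 14.1 CPM. Siglech, a sialic acid-binding lectin, ran from 3.67 to 7.41 CPM and Selplg, a selectin ligand, from 10.7 to 18.5 CPM. None of these receptors had a group mean more than 1.5 times another.

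C1qb ran from 21.3 to 41.8 CPM and C1qc from 19.5 to 37.1 CPM. Trem2 ran from 4.79 to 8.39 CPM, with group means from 5.29 CPM in untreated WT mice labelled 9w to 7.15 CPM in AAV-shA4-treated SCA7 mice. The Fc receptor genes Fcgr3 and Fcgr1 and their gamma chain gene Fcer1g ran from 4.21 to 6.74, 3.41 to 5.55 and 3.15 to 6.54 CPM.

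The leukocyte genes varied more. Itgax, the integrin alpha chain CD11c, had group means of 0.215 CPM in untreated WT mice labelled 9w, 0.550 in AAV-shA4-treated WT mice, 0.279 in untreated WT mice labelled 25w, 0.548 in AAV-shSCR-treated SCA7 mice and 0.448 CPM in AAV-shA4-treated SCA7 mice, and it passed in no comparison. Itgam, the alpha chain CD11b, ran from 2.09 to 3.37 CPM, Ptprc, the phosphatase CD45, from 1.75 to 6.12 CPM and Cd52 from 0.816 to 3.06 CPM. Irf8, a transcription factor of myeloid cells, ran from 2.27 to 5.35 CPM and Aif1 from 1.1 to 2.49 CPM.

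Cd68, a lysosomal membrane glycoprotein, ran from 4.05 to 6.32 CPM, and Lyz2, the lysozyme of macrophages, from 8.30 to 23.96 CPM. Lpl, a lipase that releases fatty acids from lipoproteins, ran from 0.571 to 2.83 CPM and Spp1 from 26.8 to 42.7 CPM. The group mean of Spp1 was 27.4 CPM in WT mice given AAV-shA4 and 33.9 to 36.7 CPM in the other groups.

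Genes of the same pathways outside the 36 were tested in the same fits, where 4.02% of all genes passed for AAV-shSCR-treated SCA7 mice against WT, 3.45% for AAV-shA4-treated SCA7 mice against WT and 5.14% between the labels. Of 17 other homeostatic microglia genes none passed in any of the 5 comparisons. Of 18 tested among 22 other activation genes, Lgals3, the gene of galectin-3, exceeded untreated WT with AAV-shSCR (0.55 ± 0.17, edgeR adjusted p = 0.0319) and with AAV-shA4 (0.61 ± 0.17, 0.0212) in SCA7 mice. Between the labels Gpnmb, a lysosomal glycoprotein, rose by 0.76 ± 0.12 and C4b, a complement component, by 0.98 ± 0.13.

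Of 15 signalling genes below Trem2, Fc receptors and integrins, Ncf1, a subunit of the phagocyte NADPH oxidase, was the 1 that passed, higher in 25w than in 9w untreated WT mice (0.61 ± 0.14, edgeR adjusted p = 0.0127). Of 8 ligands of microglial receptors C3, the central complement component, was higher in the same comparison (1.37 ± 0.34, adjusted p = 0.0187). No gene of these 4 lists passed between AAV-shA4 and AAV-shSCR in SCA7 mice or in the 9w comparison.

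Interferon-response genes were followed as well, and those given here are examples. Irf7, an interferon regulatory factor, exceeded untreated WT in AAV-shSCR-treated SCA7 mice by 1.11 ± 0.21 on the log2 scale (edgeR adjusted p = 0.00124), and Oasl2, an interferon-induced gene, by 0.94 ± 0.23 (adjusted p = 0.0101). In AAV-shA4-treated SCA7 mice Irf7 (0.92 ± 0.20, adjusted p = 0.00623) and Oasl2 (0.80 ± 0.23, adjusted p = 0.0278) were higher. Neither passed between the treated SCA7 groups, where Irf7 had −0.20 ± 0.19 (adjusted p = 0.800) and Oasl2 −0.14 ± 0.21 (adjusted p = 0.891). Between 25w and 9w untreated WT mice Ifit3, another interferon-induced gene, was higher (0.92 ± 0.26, adjusted p = 0.0307).

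Markers of other cells were followed beside these results. In the 25w mice the summed level of border macrophage genes was 25.6 to 32.8 CPM in untreated WT, 28.9 to 33.1 CPM in AAV-shSCR-treated and 30.04 to 34.9 CPM in AAV-shA4-treated SCA7 mice, and 0 of 9 genes passed in any comparison, at the 9w label or between labels. MHC class II reached 47.7 CPM in AAV-shSCR-treated SCA7 mouse 1, against 22.6 to 31.9 CPM in the other 4 mice of that group and 19.2 to 25.7 CPM in untreated WT, and H2-Eb1 alone passed, higher in the 25w than the 9w untreated mice (0.50 ± 0.15, edgeR adjusted p = 0.0422). Lymphocyte genes summed to 1.00 to 2.69 CPM in all 25w mice, with 2 of 13 tested and 0 passing. Monocyte and neutrophil genes summed to 2.03 to 16.1 CPM, with 6 of 9 tested and 0 passing. Hbb-bs, a red blood cell gene, was higher in AAV-shSCR-treated SCA7 mice, and the 5 PC genes were lower in both SCA7 groups, where all 5 passed. Choroid plexus genes summed to 641 CPM in AAV-shSCR-treated SCA7 mouse 1 and to 34.8 CPM in AAV-shA4-treated SCA7 mouse 2, in each case the lowest of the group, whose other mice ran to 2933 and 3319 CPM. Their part in the microglia values was not tested.

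Promoter sequence was read for the 26 of 36 genes with a RefSeq window (GRCm38.p6). No window was used for Lpl, Tmem119, Tyrobp, Spi1, Csf1r, Gpr34, Itgad, Cd52, Selplg and C1qa. Of the 7 genes that passed a test, Gpr34 and Itgad had none and Clec7a had 2 overlapping windows, which are not printed. For Cst7, Ctss, Fcrls and Mpeg1 the 250 bases before the start are printed 5′ to 3′ on the gene's strand because these are the genes whose level differed between groups. PU.1, the product of Spi1, is known to bind purine-rich sites with a GGAA core, and capitals mark GAGGAAG or AGGAAGT on either strand. The windows are chr2:150570165-150570414 (plus strand) for Cst7, chr3:95526536-95526785 (plus) for Ctss, chr3:87263525-87263774 (minus) for Fcrls and chr19:12460520-12460769 (plus) for Mpeg1. The RefSeq start of Fcrls lies inside the GENCODE gene span given above, so 214 bases of its window are within that span.
Cst7: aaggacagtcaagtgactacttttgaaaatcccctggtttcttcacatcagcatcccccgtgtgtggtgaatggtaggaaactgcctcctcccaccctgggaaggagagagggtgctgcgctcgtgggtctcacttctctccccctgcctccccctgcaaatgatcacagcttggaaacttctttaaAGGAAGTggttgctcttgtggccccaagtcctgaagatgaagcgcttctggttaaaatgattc
Ctss: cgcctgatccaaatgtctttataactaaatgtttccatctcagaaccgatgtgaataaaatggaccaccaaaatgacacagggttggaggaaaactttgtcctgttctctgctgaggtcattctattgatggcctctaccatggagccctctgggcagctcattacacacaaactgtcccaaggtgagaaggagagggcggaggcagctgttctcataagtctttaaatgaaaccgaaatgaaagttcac
Fcrls: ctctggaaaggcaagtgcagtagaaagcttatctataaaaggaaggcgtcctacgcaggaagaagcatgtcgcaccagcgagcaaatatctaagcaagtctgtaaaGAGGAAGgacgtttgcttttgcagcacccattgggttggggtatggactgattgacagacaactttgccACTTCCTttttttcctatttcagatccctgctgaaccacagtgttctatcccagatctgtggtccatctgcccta
Mpeg1: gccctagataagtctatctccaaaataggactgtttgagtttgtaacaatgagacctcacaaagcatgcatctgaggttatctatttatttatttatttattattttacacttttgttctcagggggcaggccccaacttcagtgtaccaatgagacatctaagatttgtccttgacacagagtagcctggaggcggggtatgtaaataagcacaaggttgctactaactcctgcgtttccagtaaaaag
AGGAAGT began 63 bases before the start of Cst7. In Fcrls GAGGAAG began 144 bases before the RefSeq start, and AGGAAGT on the other strand 75 bases before it. Ctss, Mpeg1 and both windows of Clec7a had neither string. Of the 26 genes, 10 held GAGGAAG and 9 held AGGAAGT, strings that overlap each other, against 12% and 8.8% of 27025 genes with a window of this length. GAGGAA, the shorter string within the first, was in 16 of 26 against 25.9%, and the longer GAGGAAGT in 2 of 26 against 2.79%, GGAAGTGA in 1 of 26 against 3.03%. These are matches of letters in a fixed window.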

How the data were processed

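Libraries were made from cerebellar RNA with a stranded mRNA kit. The deposited values are raw read counts per Ensembl gene, which the authors produced by trimming reads (cutadapt 1.10), removing ribosomal reads (Bowtie2 2.2.8), aligning to mm10 (STAR 2.5.3a) and counting with HTSeq 0.6.1p1, as their processing notes and methods state. The strand and overlap settings are not given in the sources used here. Symbols, gene types, positions and transcript lengths came from GENCODE M21, of the same build, which held 55141 of the 55401 genes.

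The counts were tested in R 4.3.3 with edgeR 4.0.16 (quasi-likelihood test, TMM, the filterByExpr filter) on protein-coding genes, with Benjamini-Hochberg adjustment over all genes tested. The filter asked for 15 reads in total and for the equivalent of 10 reads in a library of median size. The second limit had to be met in only as many libraries as the smallest group of the fit held. Libraries labelled 9w, libraries labelled 25w and the 7 untreated WT libraries formed 3 fits. To pass, a gene needed a fold change above 1.3 and an adjusted p below 0.05. Alternatives were DESeq2 1.42.0 (Wald test), RLE scaling, no filter, all gene types, other samples in the fit, a replicate block and leaving out each library. SE values were derived from the F statistic. The 36 genes, the gene lists and the comparisons were chosen with earlier results of these data known. Genes were named by rule: those that passed a test, and the gene with the highest level per kilobase in each of 7 role groups. Other genes given with a value were chosen after their values were seen. Labels do not say whether mice share a litter, so p-values measure the spread between these mice. Total counts of 31465586 to 54570503 reads per library set the precision, which is lowest for Cst7 and Itgad. A result of the interferon-response list is not reported here.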

Additional observations from a re-analysis of the deposited data

Results flagged for a closer look

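Single mice far from the rest of their group were looked for in the groups of 4 or 5 mice, by setting the gap between an extreme value and its neighbour against the range of the group. Of 111 groups of values checked, 13 exceeded the 95% limit of Dixon's test, and chance flags about 1 in 20. In AAV-shA4-treated SCA7 mouse 2 they were C1qa (39.5 CPM), Csf1r (57.3 CPM), Ctss (62.6 CPM), Itgax (1.06 CPM), Mpeg1 (22.7 CPM) and Siglech (7.41 CPM). In AAV-shSCR-treated SCA7 mouse 1 they were C1qb (41.8 CPM), Cd52 (3.06 CPM), Ctss (62.2 CPM), Mpeg1 (26.7 CPM) and Selplg (18.5 CPM). Untreated WT mouse 1 of the 25w label was far above its group for Laptm5 (20.1 CPM) and mouse 4 for Spi1 (2.06 CPM). All 13 were the highest value of their group. Groups of 3 mice were not checked in this way.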

How the results depend on the processing

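No microglia gene passed in AAV-shA4-treated WT mice or between AAV-shA4 and AAV-shSCR under any alternative run, DESeq2 included. For AAV-shSCR-treated SCA7 mice against WT the number passing stayed within 1.5 times the 3 reported, apart from the fits that left out 1 library, where it ran from 1 to 3, with 1 (Cst7) without untreated WT mouse 1. For AAV-shA4-treated SCA7 mice it was 0 by DESeq2, which gave Cst7 and Itgad no adjusted p. It was also 0 with the 2 groups alone, where Cst7 and Itgad had too few reads to be tested. When 1 library was left out it was 0 to 2, with 0 without AAV-shA4-treated SCA7 mouse 2 or untreated WT mouse 4. Between the 25w and 9w labels it was 7 with no fold limit and 3 to 5 when 1 library was left out, and all 20 libraries in 1 fit gave 5. Over all genes, the 8 that passed at the 9w label became 53 by DESeq2, 26 with no low-count filter, 16 with all gene types, 37 with the replicate block, 20 with all 20 libraries in 1 fit, and 1 to 43 when 1 library was left out. The cause of these changes was not tested.

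Replicate numbers were not treated as pairs in the main fits. Deviations of mice with the same number correlated at −0.305 to 0.549 and not all above 0.1, which cannot exclude pairing. With the replicate block, 1 gene passed for AAV-shA4-treated SCA7 mice (Cst7) and 2 between the labels (Ctss and Mpeg1), and Itgad was not past the threshold for AAV-shSCR-treated SCA7 mice (adjusted p = 0.0791). No call was reversed. Leaving out 1 library moved the median log2 fold change of the microglia genes from −0.03 to 0.22 (9w), −0.00 to 0.12 (AAV-shSCR against WT), 0.03 to 0.13 (AAV-shA4 against WT), −0.08 to 0.09 (AAV-shA4 against AAV-shSCR) and 0.12 to 0.20 (25w against 9w). Reads limit Cst7 and Itgad, which had 1 to 19 and 2 to 16 reads per library.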
